A study of Mus musculus with 20 samples.

Results

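Complement is a set of plasma and cell surface proteins that tags particles for uptake, recruits leukocytes and can lyse cells. C1q, built from the chains of C1qa, C1qb and C1qc, starts the classical pathway, C3 stands where all pathways meet, and factor B (Cfb) and properdin (Cfp) drive the alternative pathway. Cleavage of C3 and C5 frees the anaphylatoxins C3a and C5a, which act on the receptors C3ar1, C5ar1 and C5ar2 of myeloid cells. In the lung, macrophages are a known source of C1q. The 9 mouse genes above, of 49315 gene identifiers in the count tables, are described here. They were matched by symbol to their Ensembl identifier, and all 9 were found and passed the filter on low counts.

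The libraries are bulk RNA-seq of eosinophils sorted by flow cytometry from mouse lung. The day 7 group holds C57BL/6 recipients of a Balb/c lung graft 7 days after transplantation, without costimulatory blockade (n = 5). Such blockade is a treatment that withholds accessory signals from T cells. The resting group holds lungs of untreated C57BL/6 mice (n = 5). The group comes from the sample titles, whereas the growth text names only transplants with blockade. The labels give the eosinophils a recipient origin, and each library pooled the lungs of 3 to 5 mice, so that the spread between libraries is one between pools. Of 20 samples in 4 groups, the 10 with blockade, at day 7 and day 30, were not analysed here. The sources used here do not give mouse age.

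Total counts were 15695074 to 26683784 per day 7 library and 6666577 to 12883144 per resting library. In CPM (counts scaled to the library total), 3 counts amount to 0.112 to 0.191 at day 7 and to 0.233 to 0.450 in resting lung, a floor for counting error only. The groups stand in 2 separate deposited tables and differ in depth, so that table, depth and group cannot be told apart. In bulk samples, more cells of a type and more RNA per cell cannot be told apart either. Of 16500 genes tested, 3843 (23.3%) were higher and 3859 (23.4%) lower at day 7, which is 46.7% called in either direction.

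The eosinophil label was checked against its defining markers. Ccr3, the eotaxin receptor, averaged 442.6 ± 254.2 CPM in day 7 libraries and 355.8 ± 141.3 CPM in resting libraries (SD, n = 5 each), and neither Ccr3, Il5ra nor Siglecf was at 0 in any library. Of the 7 markers in the eosinophil list, Siglecf was called higher (edgeR adjusted p = 0.0465), Ccr3 and Il5ra were not called, and 4 granule protein genes were lower with no overlap between groups. Among these, Prg2 averaged 81.5 ± 52.7 CPM at day 7 and 463.1 ± 186.1 CPM in resting lung, and Epx 6.89 ± 3.83 CPM at day 7 and 93.1 ± 69.2 CPM in resting lung. Prg3 and Ear6 were the others. Every day 7 library stood below every resting library for 18.7% of all tested genes. The summed level of 10 neutrophil markers was above that of 7 eosinophil markers in every library: 3858 to 7878 against 466 to 1369 CPM at day 7, and 8786 to 11156 against 815 to 1752 CPM in resting lung. Without Retnlg, a gene of the neutrophil list, the neutrophil sum remained above in 4 of 5 day 7 libraries and 5 of 5 resting libraries. In day 7 library 5 it was then 990.2 against 1369 CPM. Retnlg averaged 4288.5 ± 2548.5 CPM at day 7 and 5355.6 ± 2254.1 CPM in resting lung. In each group its libraries ran in the same order as those of Ccr3. In day 7 libraries 1 to 5 Retnlg had 1385, 2790, 3336, 6805 and 7127 CPM, and Ccr3 171, 317, 329, 585 and 811 CPM. In the same libraries S100a8 of the neutrophil list had 3116, 692, 994, 433.5 and 430 CPM. Ly6g had 2.56, 2.20, 6.20, 3.69 and 6.09 CPM. Which cells the Retnlg counts came from was not tested. All values below are levels of such whole libraries.

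Sequences upstream of the start sites are shown for the C1q chains and for 2 receptors, C3ar1, which was called higher at day 7, and C5ar1, which was not called. The windows, from RefSeq on GRCm38.p6, run from 250 bases before to 50 bases after the annotated start and are on the minus strand. They lie at chr4:136886151-136886450 for C1qb, chr4:136892865-136893164 for C1qc, chr6:122856108-122856407 for C3ar1 and chr7:16259289-16259588 for C5ar1. Capitals mark GAGGAA (reverse complement TTCCTC), a core bound by PU.1, and GCTGAC (reverse complement GTCAGC), a core of Maf half-sites.
C1qb: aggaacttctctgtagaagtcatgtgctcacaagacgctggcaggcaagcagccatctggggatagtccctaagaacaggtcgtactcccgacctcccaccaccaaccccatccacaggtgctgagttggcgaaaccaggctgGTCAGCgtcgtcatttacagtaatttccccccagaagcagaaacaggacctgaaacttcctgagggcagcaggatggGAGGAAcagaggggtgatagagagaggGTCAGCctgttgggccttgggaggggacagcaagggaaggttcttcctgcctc
C1qc: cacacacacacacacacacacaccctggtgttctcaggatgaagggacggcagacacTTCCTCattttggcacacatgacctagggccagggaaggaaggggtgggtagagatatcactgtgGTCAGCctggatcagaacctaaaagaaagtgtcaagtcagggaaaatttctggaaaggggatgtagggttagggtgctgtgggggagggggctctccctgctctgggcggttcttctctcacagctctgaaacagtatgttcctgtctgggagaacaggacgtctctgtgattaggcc
C3ar1: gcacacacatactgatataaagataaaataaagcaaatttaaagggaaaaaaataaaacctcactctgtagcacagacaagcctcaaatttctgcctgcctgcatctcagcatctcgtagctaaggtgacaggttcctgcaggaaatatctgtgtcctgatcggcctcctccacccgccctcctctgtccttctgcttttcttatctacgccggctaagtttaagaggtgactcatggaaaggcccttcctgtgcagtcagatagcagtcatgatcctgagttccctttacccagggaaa
C5ar1: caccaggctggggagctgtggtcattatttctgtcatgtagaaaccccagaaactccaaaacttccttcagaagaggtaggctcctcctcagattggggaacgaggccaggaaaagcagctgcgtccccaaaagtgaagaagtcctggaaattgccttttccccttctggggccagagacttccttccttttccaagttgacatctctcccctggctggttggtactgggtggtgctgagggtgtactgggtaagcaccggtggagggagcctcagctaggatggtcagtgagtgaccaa
Windows were at hand for 7 of the 9 genes, with none for C1qa and Cfb. GAGGAA began at -30 from the start in C1qb and its reverse complement at -193 in C1qc, and GTCAGC began at -107 and -3 in C1qb and at -128 in C1qc. No match of either stands in the windows of C3ar1, C5ar1 and C3. The PU.1 core also stands at 7 and 23 bases past the start in the window of Cfp and at -26 in 1 of 2 windows of C5ar2, which was not called. Across 32851 windows of this length 28.3% held the PU.1 core and 15.7% the Maf core on either strand. The gamma activated site TTCNNNGAA and the interferon-stimulated response element, held by 8.30% and 3.44% of windows, had no match in the windows of the 7 genes. A match is a description of letters, not of binding.

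Of the 9 genes, 7 rose at day 7 and none fell, while 23.3% of all tested genes rose. The 7 were the C1q chains, C3, Cfb, Cfp and C3ar1, and in each of them every day 7 library stood above every resting library, which holds for 16.4% of tested genes. C5ar1 and C5ar2 were not called. The median log2 fold change over the 9 was 2.10, beside 0.05 over all tested genes. Fold changes are day 7 minus resting on the log2 scale, from edgeR's quasi-likelihood test with Benjamini-Hochberg adjustment over all tested genes and a threshold of 0.05, and CPM values use TMM-scaled totals.

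**Figure D1:**
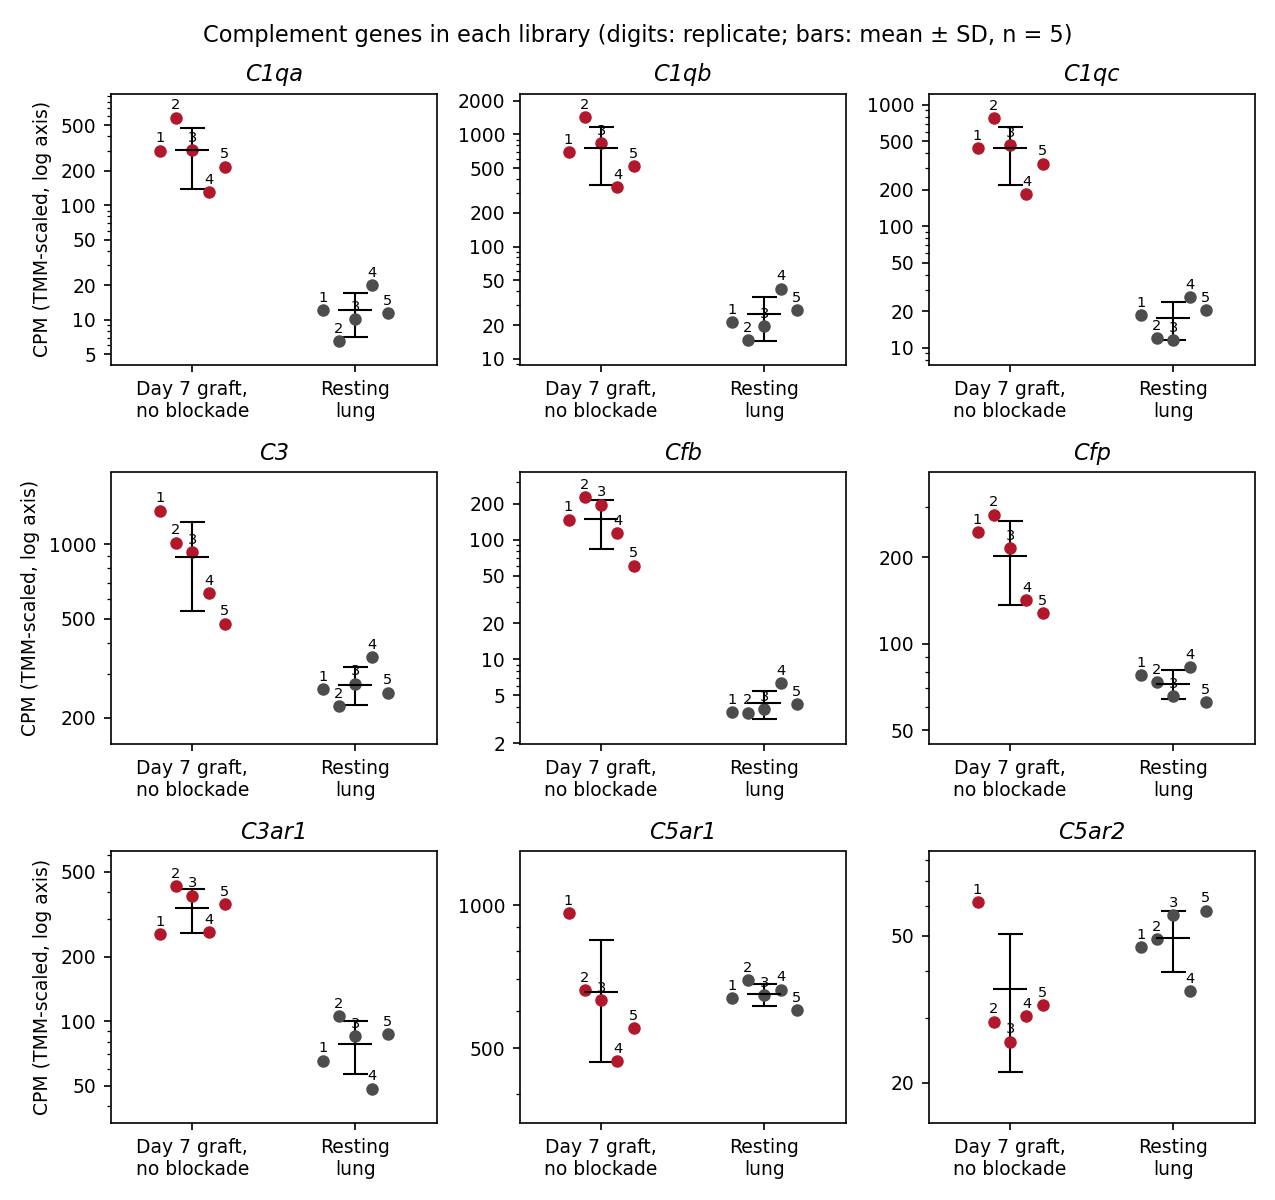
Level of each complement gene in every library in TMM-scaled CPM (log axis, a separate range per panel), with day 7 grafts without blockade on the left and resting lungs on the right, digits for the replicate and bars for mean ± SD (n = 5). The groups are apart in 7 panels and overlap for C5ar1 and C5ar2.

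The C1q chains were among the largest rises in the data. C1qa, C1qb and C1qc encode the A, B and C chains that assemble into the recognition molecule of the classical pathway, and their genes lie side by side on the minus strand of chromosome 4 in mm10: C1qb (ENSMUSG00000036905) at 136880129 to 136886187, C1qc (ENSMUSG00000036896) at 136889804 to 136893065 and C1qa (ENSMUSG00000036887) at 136895917 to 136898803. By log2 fold change among all tested genes they ranked 26, 37 and 36 from the top.

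C1qa stood at 299, 580.4, 304, 131 and 217 CPM in day 7 libraries 1 to 5, against 12.2, 6.56, 10.2, 20.1 and 11.5 CPM in resting libraries 1 to 5. The lowest day 7 library, 4, was above the highest resting library, also 4. The means were 306.4 ± 168.8 CPM at day 7 and 12.1 ± 4.98 CPM in resting lung (SD, n = 5 each), a log2 fold change of 4.67 ± 0.41 (SE, edgeR adjusted p = 1.09e-06).

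C1qb, the most abundant of the chains, stood at 696, 1414, 832, 339 and 522 CPM at day 7, against 21.1, 14.7, 19.6, 42.2 and 27.2 CPM in resting lung. Again library 2 was highest and library 4 lowest at day 7, and the groups did not overlap. Its log2 fold change was 4.93 ± 0.42 (SE, edgeR adjusted p = 7.3e-07). C1qc stood at 439, 772, 464, 184 and 328 CPM at day 7, against 18.6, 12.0, 11.6, 26.1 and 20.5 CPM in resting lung. Its libraries ran in the same order at day 7 as those of C1qa, and its log2 fold change was 4.62 ± 0.38 (SE, edgeR adjusted p = 6.01e-07).

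The chains spread widely within day 7, where the highest library held 4.44 times the lowest for C1qa, 4.17 times for C1qb and 4.20 times for C1qc. Their profiles over the 10 libraries stayed close to each other. The root mean square difference between centred log2(CPM + 0.5) profiles was 0.199 for C1qa and C1qb, 0.188 for C1qa and C1qc and 0.239 for C1qb and C1qc. As shares of the summed counts per kilobase of the chains, C1qb held 55.4, 57.6, 58.9, 58.5 and 55.9% at day 7, against 47.5, 51.9, 53.3, 54.1 and 53.6% in resting lung. All day 7 shares of C1qb were higher than all resting shares, with means of 57.3 ± 1.58% at day 7 and 52.1 ± 2.66% in resting lung (SD, n = 5 each, exact two-sided permutation test, p = 0.00794, the smallest possible, adjusted p = 0.0137 over 19 values). The shares of C1qa, 24.0 ± 0.968% and 26.5 ± 2.503%, and of C1qc, 18.7 ± 0.987% and 21.4 ± 2.90%, at day 7 and in resting lung, overlapped between groups (n = 5 each, exact permutation test, adjusted p = 0.123 for C1qa and 0.126 for C1qc).

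**Figure D2:**
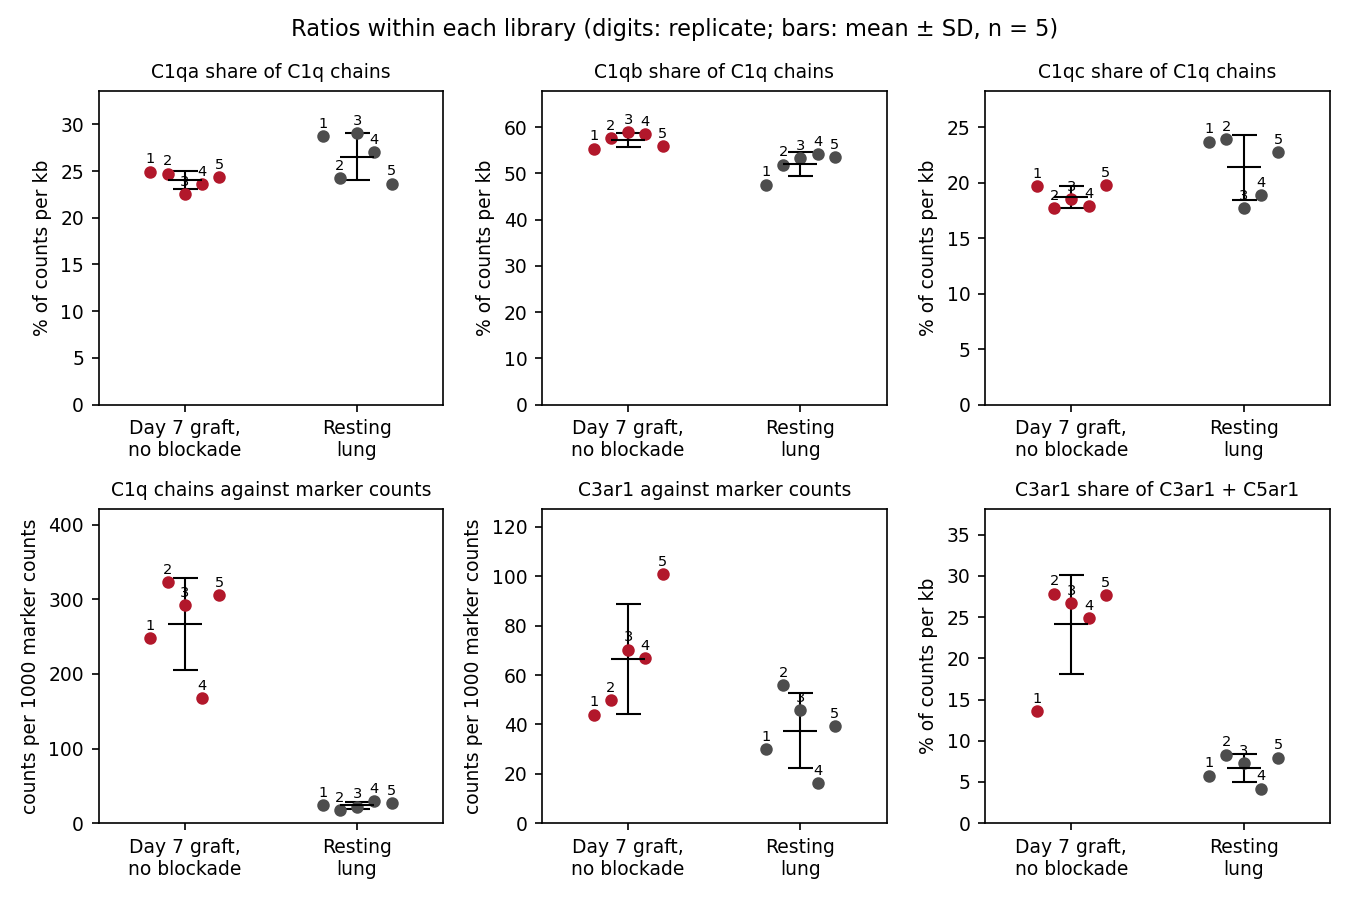
Ratios formed within each library for day 7 grafts without blockade (left) and resting lungs (right): percent of counts per kilobase in the C1q chains and in C3ar1 plus C5ar1, and counts per 1000 marker counts of monocytes and interstitial macrophages, with digits for the replicate and bars for mean ± SD (n = 5). C1q chain counts per marker count separate the groups, and the C3ar1 share does so with day 7 library 1 lowest at 13.6%.

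The summed markers of monocytes and interstitial macrophages were also higher at day 7. Cx3cr1, Mertk, Mrc1 and Cd163 of that list were not called (log2 fold changes -0.61, -0.36, -0.55 and 0.18). Of the 12 genes in that list 8 were higher and 0 lower, and their summed level was 3380 to 7630 CPM at day 7 and 1930 to 3330 CPM in resting lung, with means of 5038.6 ± 1667.1 CPM at day 7 and 2383.5 ± 572.2 CPM in resting lung (SD, n = 5 each, exact permutation adjusted p = 0.0137). The defining markers Csf1r, Fcgr1 and Mertk were at 0 in no library. Fcgr1, a high affinity IgG receptor, averaged 156.7 ± 63.5 CPM at day 7 and 10.7 ± 3.97 CPM in resting lung, while Mertk, a receptor for dying cells, averaged 31.9 ± 16.1 CPM at day 7 and 41.1 ± 5.14 CPM in resting lung. C1q chain counts per 1000 counts of the list were 248, 323, 292, 167 and 305 at day 7, against 23.7, 17.7, 22.3, 29.5 and 26.8 in resting lung. The ratio averaged 267.0 ± 62.2 at day 7 and 24.0 ± 4.49 in resting lung (n = 5 each, exact permutation adjusted p = 0.0137), so that the C1q chains rose more than the list's sum. Single genes of the list came closer to the chains. Ms4a7 rose by 4.45 and Fcgr1 by 3.88 on the log2 scale, beside 4.62 to 4.93 for the chains. The other genes of the list called higher rose by 0.66 (Csf1r) to 2.34 (Ly6c2). The part of such cells in the C1q result was not tested beyond these values. The alveolar macrophage list went the other way. Its sum averaged 866.7 ± 285.9 CPM at day 7 and 1442.1 ± 324.4 CPM in resting lung, with overlapping groups (n = 5 each, exact permutation adjusted p = 0.0377). With TMM-scaled totals that call was lost (adjusted p = 0.0603). Of its 7 genes 4 were lower and 1 higher. The sum of 9 T and NK cell markers was higher at day 7, at 224 to 636 CPM, against 63.7 to 96.6 CPM in resting lung. Within day 7 each C1q chain was highest in library 2 and lowest in library 4. The T and NK cell sum was lowest in library 2 and highest in library 5. The monocyte and interstitial macrophage sum was highest in library 2 and lowest in library 5. The part of either list was not tested.

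**Figure D3:**
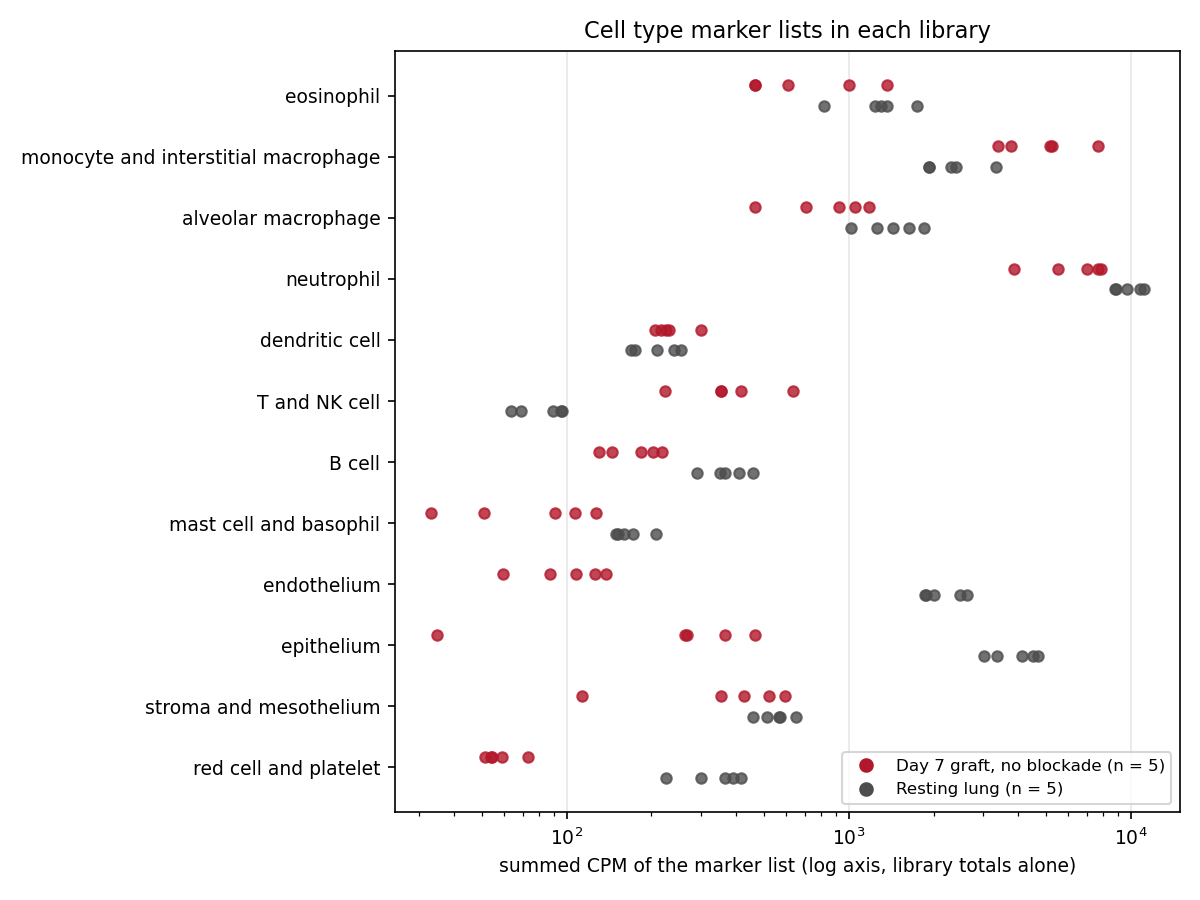
Summed CPM of each cell type marker list in every library (log axis, library totals alone), with day 7 libraries in the upper row of each list and resting libraries in the lower. Monocyte and interstitial macrophage and T and NK cell sums are above those of every resting library at day 7, and endothelium, red cell and platelet, epithelium, neutrophil, B cell, and mast cell and basophil sums are below. In the mast cell and basophil list Kit was called lower and Mcpt8 higher, 3 genes were not called and 1 was not tested. Without Kit, its most abundant marker, the sign of the difference turned.

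C3, Cfb and Cfp form the next group. C3 (ENSMUSG00000024164, chromosome 17, 57203970 to 57228136) is the protein that convertases cleave to C3a and C3b. It stood at 1366, 1016, 931, 634 and 479 CPM at day 7, against 260.2, 223, 275, 350.4 and 252 CPM in resting lung. Day 7 library 1 was highest and library 5 lowest, and the lowest exceeded every resting library. The log2 fold change was 1.70 ± 0.25 (SE, edgeR adjusted p = 8.37e-05).

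Cfb (ENSMUSG00000090231, chromosome 17, 34856374 to 34862518) encodes the serine protease of the alternative pathway convertase. It had 147, 226, 195, 113 and 60.5 CPM at day 7, against 3.60, 3.58, 3.82, 6.36 and 4.22 CPM in resting lung. The groups lay far apart, with 14336 counts in the day 7 libraries and 211 in the resting libraries. This was the largest rise among the 9 genes, a log2 fold change of 5.12 ± 0.35 that ranked 21 among all tested genes (SE, edgeR adjusted p = 1.28e-07). Of its 2825 exonic bases, 2246 are shared on the same strand with the annotated gene Gm20547, which had 0 counts, and 579 are not shared. How reads on shared bases were counted is not given, so the level of Cfb is uncertain, both in CPM and per kilobase.

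Cfp (ENSMUSG00000001128, chromosome X, 20925454 to 20931555) encodes properdin, which stabilises the alternative convertase. Its level was 245, 282, 215, 142 and 128 CPM at day 7, against 77.9, 73.4, 65.8, 82.9 and 62.6 CPM in resting lung. The resting libraries were close together and all were below the day 7 libraries. The log2 fold change was 1.48 ± 0.20 (SE, edgeR adjusted p = 5.04e-05). Cfp and C3 had similar profiles, with a root mean square difference of 0.233.

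Of the anaphylatoxin receptors 1 of 3 rose. C3ar1 (ENSMUSG00000040552, chromosome 6, 122847138 to 122856161), the receptor for C3a, had 254, 428, 386, 261 and 353 CPM at day 7, against 65.5, 105, 85.3, 48.4 and 86.9 CPM in resting lung. The groups did not overlap, and day 7 libraries 1 and 4 were the lowest of their group. The log2 fold change was 2.10 ± 0.21 (SE, edgeR adjusted p = 3.39e-06). Per 1000 marker counts of monocytes and interstitial macrophages, C3ar1 averaged 66.3 ± 22.2 at day 7 and 37.4 ± 15.2 in resting lung (n = 5 each, exact permutation adjusted p = 0.0646), with overlapping groups. This difference passed the threshold in 4 alternatives: with the defining markers alone (adjusted p = 0.0126), without the most abundant marker (0.0348), and without day 7 library 1 or resting library 2 (0.0464 each).

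C5ar1 (ENSMUSG00000049130, chromosome 7, 16246743 to 16259540), the signalling receptor for C5a, had 964, 663, 632, 470.0 and 552 CPM at day 7, against 638, 695, 647, 664 and 602 CPM in resting lung. The groups overlapped, with day 7 library 1 above and libraries 4 and 5 below all resting libraries. The means were 655.9 ± 187.5 CPM at day 7 and 649.3 ± 34.4 CPM in resting lung (n = 5 each), a log2 fold change of 0.01 ± 0.17 (SE, edgeR adjusted p = 0.954), whose sign changed with other scalings and with 1 library left out. The spread was 28.6% of the mean at day 7 and 5.30% in resting lung.

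C5ar2 (ENSMUSG00000074361, chromosome 7, 16234585 to 16244154), a second C5a receptor that does not couple to G proteins, had 61.5, 29.3, 25.8, 30.3 and 32.4 CPM at day 7, against 46.4, 48.9, 56.8, 35.4 and 58.3 CPM in resting lung. Day 7 library 1 was above every resting library and the other 4 were below every one. The log2 fold change was -0.46 ± 0.22 (SE, edgeR adjusted p = 0.114, unadjusted p = 0.0626). Without day 7 library 1 it was -0.73 (edgeR adjusted p = 0.00144), and with library totals alone -0.66 (adjusted p = 0.0217), both called lower. The neutrophil marker sums given above were also lower at day 7 (n = 5 each, exact permutation adjusted p = 0.0137), a call lost without the most abundant marker (adjusted p = 0.127). Of the 10 markers 3 were lower and 7 not called, and their part in the C5a receptor values was not tested.

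The C3ar1 share of C3ar1 plus C5ar1 counts per kilobase was 13.6, 27.8, 26.7, 24.9 and 27.6% at day 7, against 5.77, 8.30, 7.30, 4.17 and 7.94% in resting lung. No library overlapped, and the means were 24.1 ± 6.00% at day 7 and 6.70 ± 1.71% in resting lung (SD, n = 5 each, exact permutation adjusted p = 0.0137). This ratio was added after the values of both receptors were seen. C5ar1 held 96.2 ± 0.746% of C5ar1 plus C5ar2 at day 7 and 94.8 ± 1.09% in resting lung (n = 5 each, exact permutation adjusted p = 0.0646).

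**Figure D4:**
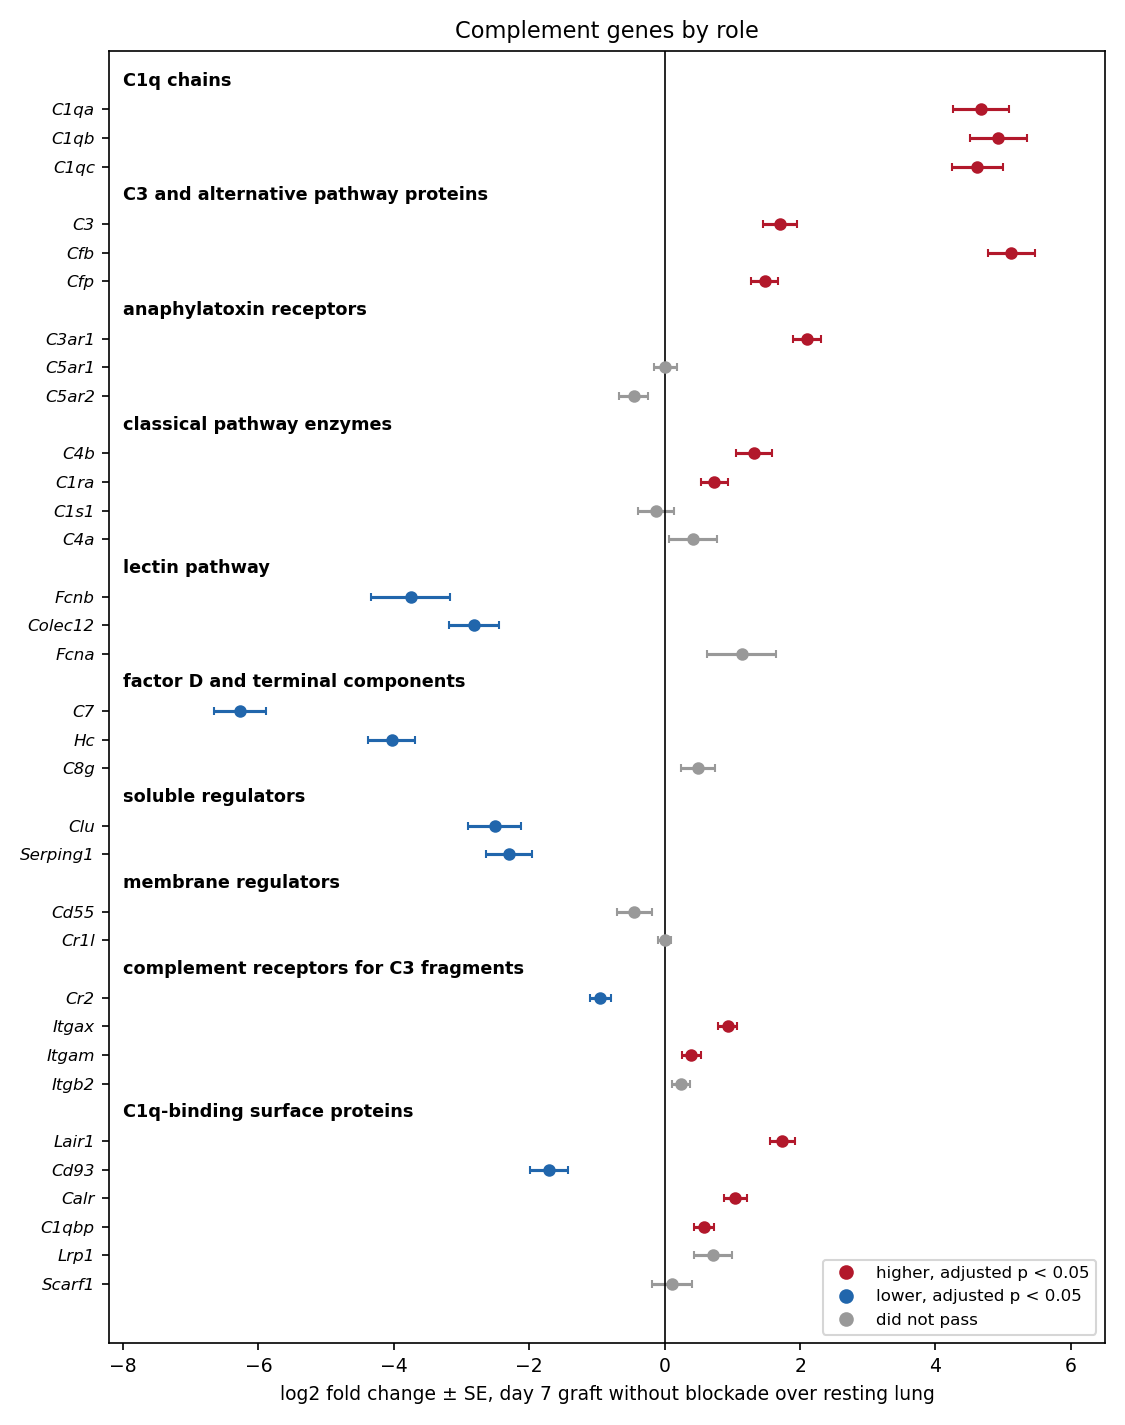
Log2 fold change (day 7 without blockade minus resting lung) of the 9 genes and of other complement genes by role, with SE bars, red for higher, blue for lower and grey for genes not called. The C1q chains and Cfb lie farthest above 0, and C5ar1 lies at 0.01.

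Per kilobase of exon, the order of levels differed between the groups. At day 7 the means in CPM per kilobase were 699 ± 376 for C1qb, 295 ± 162 for C1qa, 255 ± 73.0 for C5ar1, 226 ± 112 for C1qc, 172 ± 67.2 for C3, 116 ± 38.0 for Cfp, 78.1 ± 17.8 for C3ar1, 52.5 ± 23.2 for Cfb and 10.1 ± 4.08 for C5ar2 (SD, n = 5). Neighbours from C1qa down to Cfp differed by less than the larger of their SDs, and the other neighbours by more. In resting lung C5ar1 led at 253 ± 13.4, ahead of C3 at 52.9 ± 9.26, Cfp at 41.8 ± 4.82, C1qb at 22.9 ± 9.75, C3ar1 at 18.2 ± 5.08, C5ar2 at 13.8 ± 2.58, C1qa at 11.7 ± 4.79, C1qc at 9.21 ± 3.16 and Cfb at 1.53 ± 0.414. There the neighbours from C1qb down to C1qc differed by less than the larger of their SDs, and the others by more. The place of Cfb in both orders is uncertain, since 2246 of its 2825 exonic bases are shared with Gm20547.

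Other genes whose profile over the 10 libraries was closest to a member were found by root mean square difference of centred log2(CPM + 0.5). Gpnmb (528.4 ± 357.9 CPM at day 7 and 20.6 ± 6.22 CPM in resting lung) and Ms4a7 were among the nearest to C1qa and to C1qc, at 0.327 to 0.382. Cfp was nearest to Atp6v0c (0.078), a subunit of the lysosomal proton pump, C3 to Serpina3f (0.161) and Grn (0.171), and Cfb to Htr7 (0.333) and Ccl12 (0.337). C3ar1 was nearest to Cd200r4 (0.240) and Rgs1 (0.260), C5ar1 to Tmem38b (0.090) and Pxn (0.101), and C5ar2 to Lrrc57 (0.188).

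Of the 52 other complement genes 37 were tested, of which 8 were higher, 15 lower and 14 not called, beside 23.3% higher and 23.4% lower over all tested genes. Over the 17 alternatives 6 to 12 were higher and 15 to 21 lower, with 12 higher without resting library 4. Their median log2 fold change was -0.13. Among classical pathway enzymes 2 of 7 were higher. C4b averaged 111.4 ± 40.2 CPM at day 7 and 44.8 ± 11.6 CPM in resting lung (n = 5 each, log2 fold change 1.32 ± 0.26, edgeR adjusted p = 0.000997), though reads can be split with its near-identical copy C4a, which had 30.0 ± 15.2 CPM at day 7 and 22.2 ± 8.72 CPM in resting lung (adjusted p = 0.357). C1ra had a log2 fold change of 0.73 (adjusted p = 0.00945) and its partner C1s1 of -0.13 (adjusted p = 0.734). In the lectin pathway 3 of 4 tested genes were lower, among them Fcnb, a ficolin, at 2.36 ± 2.5 CPM at day 7 and 31.6 ± 14.5 CPM in resting lung, and Colec12, a scavenger collectin, at 9.30 ± 4.45 CPM at day 7 and 65.9 ± 8.24 CPM in resting lung. Their log2 fold changes were -3.75 and -2.82 (edgeR adjusted p = 0.000167 and 3.5e-05).

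Of the tested terminal components and soluble regulators, 3 of 4 and 4 of 4 fell. C7, a membrane attack component, had 1.46, 0.110, 1.92, 1.19 and 0.808 CPM at day 7, against 113, 72.9, 79.1, 88.4 and 82.3 CPM in resting lung. Every day 7 library was below every resting library (log2 fold change -6.27 ± 0.38, edgeR adjusted p = 4.29e-08). Hc, which encodes C5, the source of C5a, averaged 2.12 ± 1.37 CPM at day 7 and 35.1 ± 6.66 CPM in resting lung (log2 fold change -4.03 ± 0.35, adjusted p = 1.09e-06). The soluble regulators included Clu (clusterin, log2 fold change -2.51, edgeR adjusted p = 0.00016) and Serping1 (C1 inhibitor, -2.30, adjusted p = 9.81e-05). Endothelium marker sums also fell, to 59.6 to 139 CPM at day 7, against 1865 to 2628 CPM in resting lung, and epithelium sums to 34.8 to 464 CPM at day 7, against 3031 to 4708 CPM in resting lung (n = 5 each, exact permutation adjusted p = 0.0137 for both). Stroma sums were 114 to 595 CPM at day 7 and 459 to 651 CPM in resting lung (adjusted p = 0.126 by the exact permutation test). Their part in these falls was not tested. Cfd, factor D, failed the filter, with 115, 69, 2, 38 and 32 counts at day 7, against 0, 1, 2, 0 and 0 counts in resting lung. With no filter on low counts it was called higher (edgeR adjusted p = 1.91e-09), and over the 17 alternatives 0 to 2 genes of the factor D and terminal component list were higher.

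Among 7 tested membrane regulators 3 fell and none rose. Those that fell had low levels: Cd59a, Cd59b and Susd4 averaged 0.778, 0.0614 and 0.2025 CPM at day 7, against 4.58, 1.24 and 2.12 CPM in resting lung. Cd55 had 129.5 ± 55.4 CPM at day 7 and 177 ± 36.6 CPM in resting lung (edgeR adjusted p = 0.18). Cr1l, a regulator of C3b, had 136.9 ± 8.502 CPM at day 7 and 136.8 ± 10.6 CPM in resting lung (adjusted p = 0.995). For receptors of C3 fragments, Itgax (CD11c) rose (log2 fold change 0.93, adjusted p = 0.000107) and Cr2 fell (-0.95, adjusted p = 0.000238). Itgam (CD11b) had 344.7 ± 9.25 CPM at day 7 and 263.8 ± 52.4 CPM in resting lung (log2 fold change 0.39, adjusted p = 0.0325), a call that was lost with library totals alone (adjusted p = 0.205) and without day 7 library 4 (0.0501) or resting library 1 (0.057). It shares 3450 of its 5024 exonic bases with the annotated gene Gm49368, so its level is uncertain. Among proteins that bind C1q, Lair1, an inhibitory collagen receptor, had 243, 305, 326, 207 and 160.1 CPM at day 7, against 56.6, 73.8, 73.8, 80.9 and 85.7 CPM in resting lung. Its groups did not overlap (log2 fold change 1.74 ± 0.19, edgeR adjusted p = 5.39e-06). Calr (calreticulin) rose by 1.04 on the log2 scale and C1qbp by 0.58, and C1qbp was not called with library totals alone (adjusted p = 0.0557). Cd93 fell by 1.71 on the log2 scale (adjusted p = 0.000244).

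**Figure D5:**
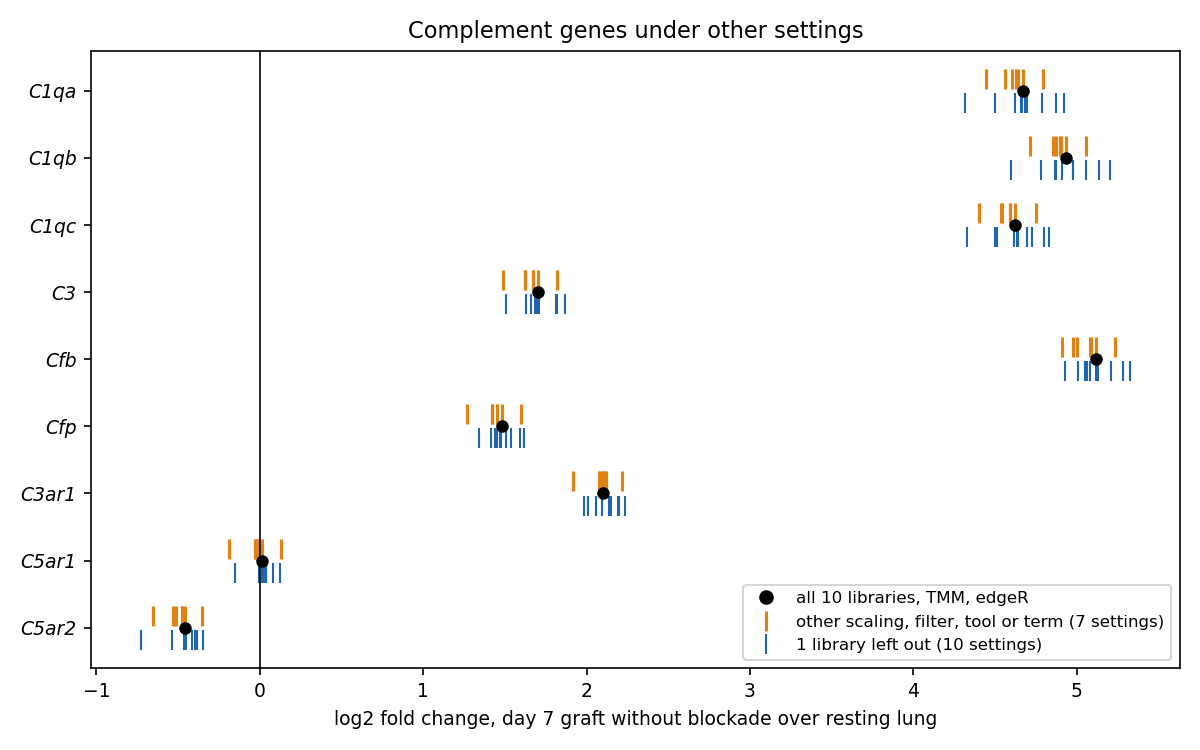
Log2 fold change (day 7 without blockade minus resting lung) of each of the 9 genes in the fit to all 10 libraries and under 17 other settings. The 7 genes called higher keep their sign and C5ar1 changes sign around 0.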

How the data were processed

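RNA-seq counts per gene were deposited by the authors as whole numbers, unnormalized. Trizol extraction and a NEBNext Ultra II preparation preceded sequencing, per the labels' protocols. Per the submitters' processing notes, the reads passed through STAR 2.5.2b, Trimmomatic 0.36, bcl2fastq 2.17, Subread 1.5.2 and featureCounts (order not stated), on mm10. The sources used here do not give the strand setting, the annotation release or the treatment of multiply matching reads. Values of paralogs (C4a and C4b, C1ra and C1rb, C1s1 and C1s2, Cd59a and Cd59b, Cd55 and Cd55b) and overlapping genes are therefore uncertain. A further 10 columns headed by bare numbers matched no label and were not used. Symbols and coordinates came from GENCODE M21 (48970 of 49315 identifiers with a symbol).

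Genes were filtered with filterByExpr and tested with edgeR 4.0.16 in R 4.3.3 (TMM, quasi-likelihood, robust dispersion, group as the only term). DESeq2 1.42.0 and limma 3.58.1 (voom) were alternatives. Standard errors were derived from each log2 fold change and its F statistic. Exact two-sided permutation tests in scipy 1.17.1 compared ratios within libraries, with Benjamini-Hochberg adjustment over 19 values. Marker sums used library totals alone. The test was checked on simulated data. No libraries were duplicates (chi-square per degree of freedom 6.57 or more). Nothing in the labels says that a replicate number pairs samples.

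The 9 genes, the role and marker lists and the rule for named genes were chosen with earlier results of these data known. The rule named, per role, up to 4 called genes reaching 5 CPM in either group and up to 2 tested genes that were not called, and for each of the 9 genes the 3 closest profiles. A few genes picked by it are left out of the text. Cfd, Cd59a, Cd59b and Susd4 were named outside it, after their values were seen. The PU.1 and Maf motifs were chosen after the sequences were seen.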

Additional observations from a re-analysis of the deposited data

Results flagged for a closer look

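Of 106 groups of 5 library values checked, 6 had 1 library far from the nearest of the others, and chance gives about 1 in 20. In day 7 library 1, C5ar2 was highest at 61.5 CPM (next 32.4 CPM), Fcnb was highest at 6.64 CPM (next 2.23 CPM), and the C3ar1 share of C3ar1 plus C5ar1 was lowest at 13.6% (next 24.9%). In day 7 library 5, the dendritic cell marker sum was highest at 300.5 CPM (next 231 CPM). Among resting libraries, Cfb was highest in library 4 at 6.36 CPM (next 4.22 CPM), and Cd93 was highest in library 1 at 278.7 CPM (next 212.9 CPM).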

How the results depend on the processing

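The 7 genes called higher kept direction and call in all 17 alternatives (7 analytic settings and 10 with 1 library left out), with log2 fold changes of 4.32 to 4.92 for C1qa and 4.91 to 5.33 for Cfb. The number lower was 1 with library totals alone, and 0 to 1 with 1 library left out. C5ar1 was -0.188 with library totals alone, -0.011 with RLE scaling and with DESeq2, -0.028 with limma-voom and with the replicate block, and -0.15 to 0.12 with 1 library left out. C5ar2 was -0.655 with library totals alone and -0.73 to -0.35 with 1 library left out. Library totals alone put the median of all genes at -0.14, against 0.05, with 2495 higher and 4883 lower, and no filter on low counts gave 4862 higher and 6715 lower.

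Cr1l was -0.186 (library totals alone), -0.024 (RLE), -0.025 (DESeq2) and -0.017 to 0.049 (1 library left out). Scarf1 was -0.100 (library totals alone), -0.0059 (limma-voom), -0.028 (replicate block) and -0.22 to 0.31, and C1s1 -0.45 to 0.042 (1 library left out). As day 7 minus resting differences, C3ar1 per 1000 marker counts (28.93, not called) was called at 39.46 without the most abundant marker, 183.8 with defining markers alone, and was 20.30 to 34.53 with 1 library left out. Without its most abundant marker, a list's sum differed by -559.3 CPM for eosinophils (now called; full list -514.0) and -131.2 for stroma (now called; full list -150.2). Without theirs, the neutrophil call was lost (-1930.2, full list -3485.8), and the sign turned for dendritic cells (-22.33, called; full list 26.2, not called) and for mast cells and basophils (36.04, not called; full list -86.32, called). With TMM-scaled totals, the alveolar macrophage call was lost (-419.0 CPM, against -575.3) and dendritic cells were called (55.57). With 1 library left out, alveolar macrophages differed by -681.1 to -471.6 CPM. Their call was then kept only without day 7 library 1 (exact permutation adjusted p = 0.0464) or resting library 2 (0.0251). With 1 library left out, the C5ar1 share (not called) differed by 1.096 to 1.804 percentage points. It was called only without resting library 4 (exact permutation adjusted p = 0.0251). The cause of these shifts was not tested.

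Same-numbered libraries did not deviate together (correlations 0.157, -0.035, -0.168, -0.250 and 0.138), and no library was closest to its own number. The replicate block gave 3317 genes higher and 3636 lower and changed no call among the 9 genes. Depth, pools and separate tables limit the comparison: 3 counts amount to 0.233 to 0.450 CPM across the resting libraries.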
